A study of Rattus norvegicus with 20 samples.

Results

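The whole blood of 5 male Fischer 344 (F344) rats fed pterostilbene (CSAA+PTS) was set against the blood of 14 rats on the other 3 diets pooled, over every gene with at least 2 reads in at least 15 of the 19 libraries. Those 16734 genes were 50.9% of the 32882 genes in the count table, and the 19 libraries were all but 1 of the 20 in the series. All rats were wild type males labelled 8 weeks of age and ate a choline-sufficient, amino acid-defined diet (CSAA) for 20 days, alone or with 1 polyphenol mixed in. The CSAA+PTS rats received 1.34 g of pterostilbene per kg of diet. The pool held 4 CSAA+RSV rats (resveratrol, 1.2 g per kg), 5 CSAA+CGA rats (chlorogenic acid, 1.9 g per kg) and 5 CSAA rats with no compound, and the study describes the compounds as given at equal molar concentrations. Pterostilbene is the dimethyl ether of resveratrol, whereas chlorogenic acid has a different skeleton. The fourth CSAA+RSV library held 861072 counts, against 24036703 to 36743103 in the other 19, and was left out. Each library came from 1 rat, so the spread below is between animals. The labels describe whole blood, a mixture of red cell precursors, platelets and white cells, in which fewer cells of a type and less RNA per cell cannot be told apart.

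Type I interferons bind a receptor that activates the kinases Jak1 and Tyk2. The signal reaches the nucleus and acts at the interferon-stimulated response element in the promoters of target genes. The targets encode antiviral proteins, RNA and DNA sensors, and regulators that feed back on the pathway, and white blood cells keep a low level of many of them without infection.

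Promoters of 5 interferon-stimulated genes that recur in the results are shown here, picked from those that hold the element so that it can be read. Each runs from 250 bases before to 50 bases after the annotated start, 5′ to 3′ on the gene's strand, from RefSeq (GRCr8), a later build than the rn6 used for counting. Capitals mark the 10-base motif GAAANNGAAA or its reverse complement TTTCNNTTTC.
Ifi27 (chr6:128355062-128355361, GRCr8, plus strand): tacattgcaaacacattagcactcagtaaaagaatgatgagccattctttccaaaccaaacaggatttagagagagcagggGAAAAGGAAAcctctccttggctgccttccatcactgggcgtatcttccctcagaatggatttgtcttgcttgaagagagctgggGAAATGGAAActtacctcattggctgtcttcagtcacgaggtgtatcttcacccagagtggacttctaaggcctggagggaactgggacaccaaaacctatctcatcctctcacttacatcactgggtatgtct
Irf7 (chr1:205799974-205800273, GRCr8, minus strand): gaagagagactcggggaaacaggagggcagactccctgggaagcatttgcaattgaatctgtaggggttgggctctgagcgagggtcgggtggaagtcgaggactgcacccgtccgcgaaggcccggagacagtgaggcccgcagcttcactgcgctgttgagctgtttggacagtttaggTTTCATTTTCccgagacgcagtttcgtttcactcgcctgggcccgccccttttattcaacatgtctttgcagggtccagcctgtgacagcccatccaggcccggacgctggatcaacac
Oas1a (chr12:41330216-41330515, GRCr8, plus strand): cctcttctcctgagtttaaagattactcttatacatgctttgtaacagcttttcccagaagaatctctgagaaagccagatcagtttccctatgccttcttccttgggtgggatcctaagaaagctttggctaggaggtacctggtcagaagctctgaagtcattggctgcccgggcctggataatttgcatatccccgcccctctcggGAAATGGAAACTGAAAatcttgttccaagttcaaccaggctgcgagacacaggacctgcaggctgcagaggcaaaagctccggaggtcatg
Oas1i (chr12:41284976-41285275, GRCr8, plus strand): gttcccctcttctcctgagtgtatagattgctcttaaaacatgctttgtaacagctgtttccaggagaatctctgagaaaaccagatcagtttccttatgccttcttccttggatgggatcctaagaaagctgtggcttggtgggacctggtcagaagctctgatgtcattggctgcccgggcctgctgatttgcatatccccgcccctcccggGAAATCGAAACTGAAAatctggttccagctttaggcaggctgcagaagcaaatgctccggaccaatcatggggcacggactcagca
Lgals3bp (chr10:104127799-104128098, GRCr8, minus strand): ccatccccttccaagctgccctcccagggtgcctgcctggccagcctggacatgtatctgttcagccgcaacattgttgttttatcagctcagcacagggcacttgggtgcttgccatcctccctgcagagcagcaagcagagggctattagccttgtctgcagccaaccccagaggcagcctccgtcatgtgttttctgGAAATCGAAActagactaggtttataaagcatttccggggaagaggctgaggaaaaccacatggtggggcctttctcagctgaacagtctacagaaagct
In Ifi27 the 2 matches began 169 and 84 bases before the start, and in Oas1a and Oas1i 2 matches overlapped each other. The motif was present in 31 of the 48 promoters of interferon-stimulated genes in the promoter table, or 64.6%, against 3.92% of all 33469 promoters of that length. The promoters of Oasl, Trafd1, Znfx1, Rnf213 and Mavs held no match in this window, and Rtp4, Oas2 and Isg15 had no entry in the promoter table. A match is a description of the letters and not of factor binding.

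Rtp4, a receptor transporter protein induced by interferon, was the 1 gene that differed after correction over all genes. It had 7.91, 9.40, 11.1, 8.46 and 8.10 CPM (counts per 1000000 of the TMM-scaled library size) in CSAA+PTS Rats 1 to 5, against 12.6 to 19.7 CPM with a median of 13.98 in the 14 other rats. Every CSAA+PTS rat was below every other rat. The log2 fold change of Rtp4 was -0.73 (SE 0.116), with an adjusted p of 0.0448 by edgeR's quasi-likelihood test with Benjamini-Hochberg (BH) adjustment. That was 0.00598% of genes tested in the lower direction and 0% in the higher direction. At an unadjusted p under 0.05, 746 genes were lower (4.46%) and 650 higher (3.88%), and 28 lower and 6 higher genes were under 0.001. The median log2 fold change over all genes was 0.01.

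The Rtp4 call was close to the limit. The edgeR adjusted p ranged from 0.0229 to 0.207 over the 19 fits that left out 1 rat. The call held in 5 of them, namely those without CSAA+PTS Rat3, CSAA+RSV Rat5, CSAA+CGA Rat3, CSAA Rat2 or CSAA Rat4, and leaving out any of the other 14 rats ended it. The log2 fold change stayed between -0.85 and -0.67 under all alternatives run. DESeq2 called 20 genes lower and 3 higher on the same counts, and limma-voom with sample weights called 7 lower and 0 higher.

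Against each diet on its own, in a fit of 4 diet means, the log2 fold change of Rtp4 was -0.82 (95% interval -1.13 to -0.52) against CSAA+RSV, -0.70 (-0.99 to -0.40) against CSAA+CGA and -0.69 (-0.98 to -0.40) against CSAA. Rtp4 averaged 8.99 ± 1.29 CPM in CSAA+PTS, 15.9 ± 2.26 in CSAA+RSV, 14.6 ± 1.88 in CSAA+CGA and 14.5 ± 2.99 in CSAA (SD, n = 5, 4, 5 and 5). The 3 comparisons share the CSAA+PTS rats. Of the genes tested, 0 passed BH 0.05 in any of the 3 comparisons by edgeR. Unadjusted p was under 0.05 for 388 lower and 114 higher genes against CSAA+RSV, 429 and 429 against CSAA+CGA, and 759 and 490 against CSAA. Among the 3 pooled diets 0 genes differed by edgeR after BH adjustment, and 169 (1.01%) had an unadjusted p under 0.05.

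**Figure D1:**
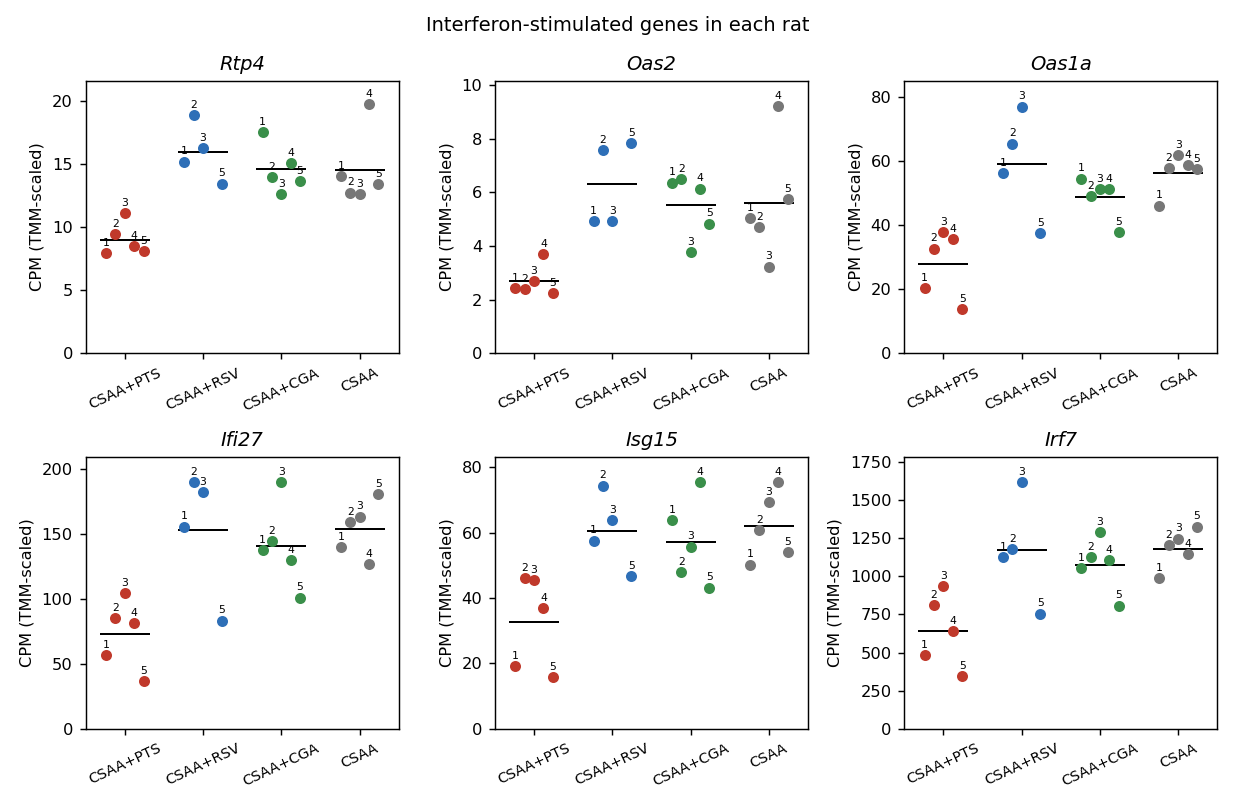
CPM (TMM-scaled) of 6 interferon-stimulated genes in each rat, by diet, with the rat number above each point and the diet mean as a line. All 5 CSAA+PTS rats lie below all other rats in Rtp4, and in the other 5 panels the CSAA+PTS means are the lowest while single rats overlap the pool.

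The 6 genes whose CSAA+PTS rats all lay below all others (0.0359% of genes tested) were Rtp4, Oas1g, Oas1i, Dhx58, Pip4k2b and Letm1, and 0 genes lay above (0%). The split depended on scaling, since CPM of the raw library size gave 3 below and 32 above. Without the Rat5 of every diet it was 29 below and 20 above. Leaving out single rats gave 2 to 15 below and 0 to 15 above. Oas1g and Oas1i, which had nearly the same values, count separately among the 6. Dhx58 encodes a helicase of the RIG-I family, and had 5.94, 4.96, 5.60, 5.17 and 4.37 CPM in CSAA+PTS Rats 1 to 5, against 6.09 to 10.0 CPM with a median of 7.19 in the pool. Its log2 fold change was -0.51 (SE 0.117, edgeR adjusted p 0.349). Pip4k2b, a phosphoinositide kinase, and Letm1, a protein of the inner mitochondrial membrane, had log2 fold changes of -0.36 and -0.19.

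The oligoadenylate synthetases make the second messenger that switches on RNase L when double-stranded RNA is sensed. Oas2 had 2.44, 2.40, 2.68, 3.70 and 2.24 CPM in CSAA+PTS Rats 1 to 5, against 3.23 to 9.23 CPM with a median of 5.40 in the pool, and 4 of the 5 rats were below every pooled rat. The log2 fold change of Oas2 was -1.10 (SE 0.201, edgeR adjusted p 0.101). Oas1a had 20.2, 32.6, 37.8, 35.5 and 13.7 CPM, against 37.5 to 77.0 CPM with a median of 55.4 in the pool, a log2 fold change of -0.96 (edgeR adjusted p 0.158). Only Rat3 of CSAA+PTS reached the lowest pooled Oas1a values. Oas1g had 4.01, 7.12, 7.64, 7.33 and 3.73 CPM, against 7.64 to 14.2 CPM with a median of 11.5 in the pool, so that the groups met at their edges. Oas1i had the same CPM as Oas1g in CSAA+PTS Rats 1 to 3, and the same pooled minimum, median and maximum. The entries are therefore not separate evidence, and whether both count the same reads was not tested. Oasl, a synthetase-like protein, had 6.95, 7.81, 7.92, 9.10 and 5.07 CPM against 8.19 to 19.4 CPM with a median of 12.1 in the pool, a log2 fold change of -0.74 (edgeR adjusted p 0.349).

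Ifi27, a mitochondrial protein strongly induced by interferon, had 56.4, 85.0, 104, 81.5 and 36.6 CPM in CSAA+PTS Rats 1 to 5, against 83.2 to 190 CPM with a median of 149.95 in the pool. Its log2 fold change was -1.03 (SE 0.209, edgeR adjusted p 0.158). Isg15, the ubiquitin-like modifier, had 19.1, 46.1, 45.5, 37.0 and 15.8 CPM, against 43.2 to 75.5 CPM with a median of 59.2 in the pool, with Rats 2 and 3 inside the pooled range. Usp18, the protease that removes Isg15 and restrains the interferon receptor, had 11.8, 12.2, 16.8, 14.3 and 9.42 CPM, against 14.5 to 25.3 CPM with a median of 18.8. The log2 fold changes of Isg15 and Usp18 were -0.87 and -0.61, with edgeR adjusted p of 0.404 and 0.349.

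Irf7 is the transcription factor that amplifies interferon production. It had 485, 811, 936, 640 and 344 CPM in CSAA+PTS Rats 1 to 5, against 755 to 1619 CPM with a median of 1137 in the pool (log2 fold change -0.83, SE 0.199, edgeR adjusted p 0.404). Rat5 was the lowest CSAA+PTS rat in Oas1a, Ifi27, Isg15 and Irf7. The Rat5 of CSAA+RSV and of CSAA+CGA was the lowest of its diet in each of these 4 genes. The Rat5 of CSAA+PTS, CSAA+RSV and CSAA+CGA also had the largest TMM scaling factor of its diet (1.43, 1.35 and 1.15). A larger factor lowers the CPM, and the order of the rats without this scaling was not tested. Trafd1, a feedback inhibitor of innate signaling, had a log2 fold change of -0.53. For Znfx1 and Rnf213, both large antiviral proteins, and the secreted glycoprotein Lgals3bp, the values were -0.66, -0.72 and -0.83. The edgeR adjusted p of these 4 genes was 0.349 to 0.512.

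Of 61 interferon-stimulated genes tested, 35 were lower and 0 higher at an unadjusted p under 0.05, or 57.4% against 4.46% of all genes. Their median log2 fold change was -0.38, against 0.01 over all genes, and 55 of the 61 were below 0. The list was chosen with earlier results of these data known, so its share is not independent evidence. It left out Plscr1, which had a positive log2 fold change of 0.31. The list median was -0.37 against CSAA+RSV, -0.39 against CSAA+CGA and -0.39 against CSAA. After BH adjustment 1 gene of the list, Rtp4, passed in the 2-group edgeR fit, whereas 14 of the 61 passed with DESeq2 and 7 with limma-voom. Oas1g and Oas1i, nearly equal in value, count separately in the 61, 35, 14 and 7. The count of 35 was 29 to 42 under the alternatives run, 29 without Rats 2 and 3 of CSAA+PTS and 32 without the Rat5 of every diet. In single rats the median deviation of the list from the pool mean, on the log2 scale, was -0.39, -0.26, -0.37, -0.19 and -0.66 in CSAA+PTS Rats 1 to 5, against -0.25 to 0.25 in the pool. CSAA+PTS Rat4 and the lowest pooled rat, Rat5 of CSAA+CGA, overlapped. The summed level of the list overlapped widely. It was 8977 to 18200 CPM with a median of 12647 in CSAA+PTS rats, and 10042 to 18605 CPM with a median of 13682 in the pool.

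**Figure D2:**
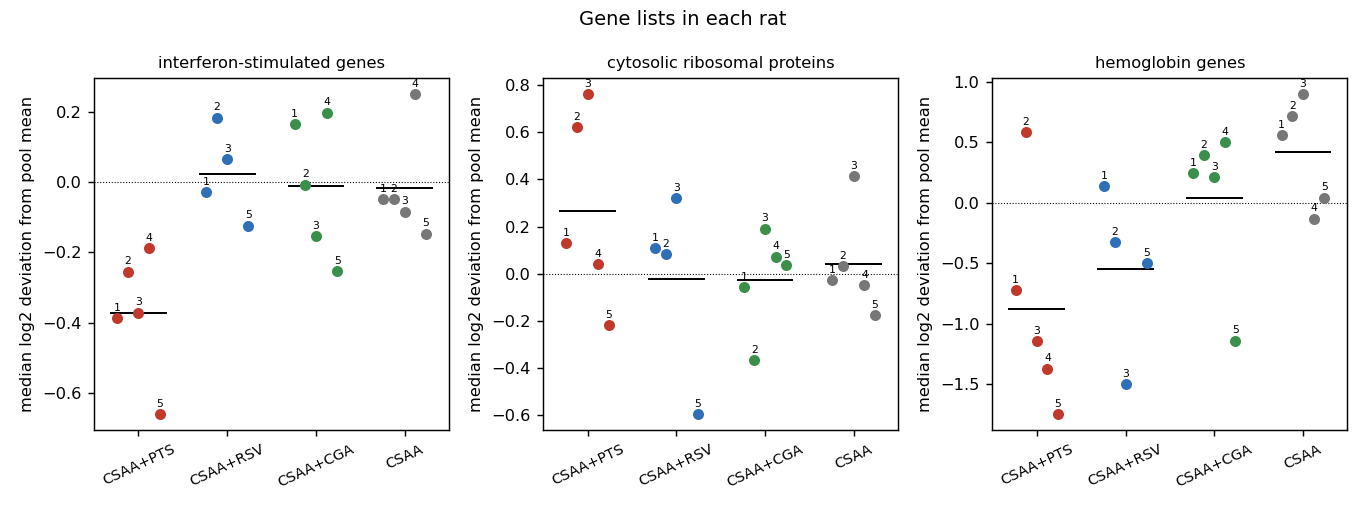
Median log2 deviation from the mean of the 14 pooled rats over the interferon-stimulated, cytosolic ribosomal protein and hemoglobin genes, by rat and diet, with rat numbers and diet means. CSAA+PTS rats run from -0.66 to -0.19 in the first panel, Rats 2 and 3 lead the second, and CSAA+PTS Rat2 (0.58) lies above the other CSAA+PTS rats (-1.75 to -0.72) in the third.

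The genes of interferon reception and signaling held 25 members tested, of which 7 were lower and 0 higher at an unadjusted p under 0.05 (28% against 4.46% of all genes), with a median of -0.12. Mavs, the mitochondrial adaptor of RNA sensing, had 7.27, 10.6, 5.67, 10.9 and 6.35 CPM in CSAA+PTS Rats 1 to 5, against 7.16 to 14.6 CPM with a median of 12.3 in the pool. Cgas, the DNA sensor, had log2 fold change -0.61, and Sting1, its adaptor, -0.48. All 5 values of Sting1 lay within the pooled range. None of these passed BH adjustment by edgeR (adjusted p 0.573 for each). Against CSAA+RSV, Mavs was at -0.32 (interval -0.74 to 0.09), Cgas at -0.84 (-1.36 to -0.32) and Sting1 at -0.25 (-0.66 to 0.17). Against CSAA+CGA they were at -0.53 (-0.93 to -0.13), -0.57 (-1.06 to -0.07) and -0.48 (-0.87 to -0.08). Against CSAA they were at -0.62 (-1.02 to -0.23), -0.45 (-0.95 to 0.05) and -0.64 (-1.04 to -0.25).

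A set of genes was also measured by qRT-PCR, and since it was chosen on these same rats its direction is not independent evidence. The study's qRT-PCR compared CSAA+PTS with CSAA only. It reports decreases that were not significant for Slc7a5 and Pltp, and significant ones for the remaining genes. The 8 genes are Rtp4, Oas2, Oas1a, Ifi27, Irf7, Lgals3bp, Slc7a5 and Pltp, and all 8 had negative log2 fold changes, 7 of them at an unadjusted p under 0.05. Slc7a5, an amino acid transporter, had 20.2, 43.2, 18.5, 32.2 and 16.3 CPM in CSAA+PTS Rats 1 to 5, against 21.6 to 68.7 CPM with a median of 51.6 in the pool (log2 fold change -0.85, edgeR adjusted p 0.573). Slc7a5 was at -0.49 (interval -1.15 to 0.17) against CSAA+RSV, -0.88 (-1.51 to -0.26) against CSAA+CGA and -1.06 (-1.68 to -0.43) against CSAA. A difference of Slc7a5 from CSAA+RSV was thus not detected, and cannot be taken as absent. Pltp, a phospholipid transfer protein, had 4.15, 9.89, 5.28, 4.62 and 3.50 CPM, against 3.18 to 13.6 CPM with a median of 9.32 in the pool. Its groups overlapped throughout, at a log2 fold change of -0.59 and an unadjusted p of 0.0552. Pltp was at -0.24 (-0.92 to 0.44) against CSAA+RSV, -0.39 (-1.03 to 0.25) against CSAA+CGA and -0.97 (-1.62 to -0.33) against CSAA.

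**Figure D3:**
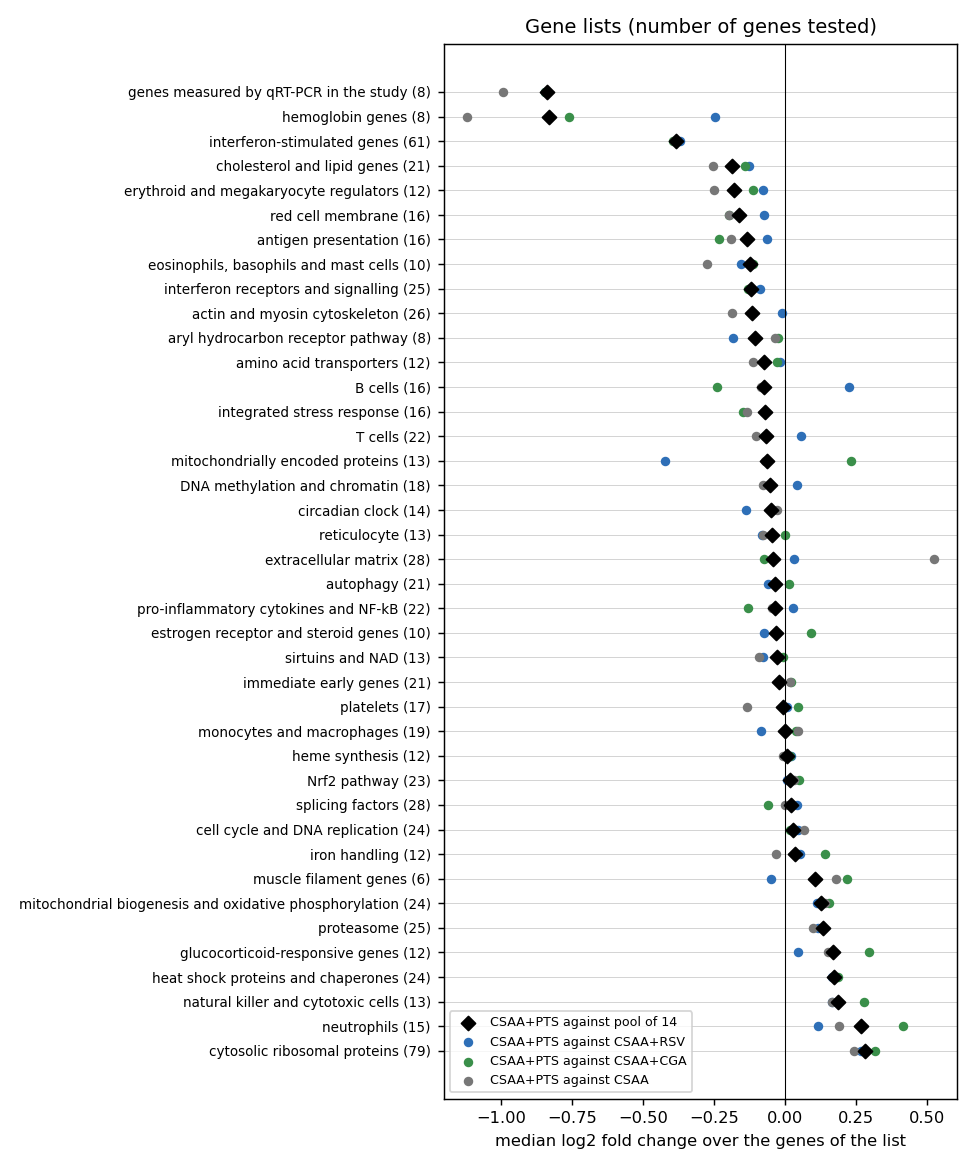
Median log2 fold change over the genes of each list for CSAA+PTS against the pool of 14 (black diamonds) and against CSAA+RSV, CSAA+CGA and CSAA (coloured points), with the number of genes tested in brackets. The interferon-stimulated genes have nearly equal medians against all 3 diets, whereas the hemoglobin genes are spread from -1.12 to -0.25.

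Hemoglobin carries oxygen, and its messages come from immature red cells. Its genes made up 8.63 ± 4.03% of all counts in CSAA+PTS rats (SD, n = 5), against 14.9 ± 4.75% in the pool (n = 14). The exact permutation test over all 11628 assignments of rats gave p = 0.0181 (two-sided, 0.0452 after BH adjustment over 5 composition measures), and p = 0.0529 without CSAA+PTS Rat3. The share was 10.3, 14.9, 5.25, 6.78 and 5.84% in CSAA+PTS Rats 1 to 5, against 4.85 to 20.7% with a median of 15.3% in the pool, so the groups overlapped widely. Of 8 hemoglobin genes tested, 4 were lower and 0 higher at an unadjusted p under 0.05 (50% against 4.46% of all genes), with a median log2 fold change of -0.83.

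The pooled diets had unequal mean levels of hemoglobin genes, lowest in CSAA+RSV. Hba-a1, an alpha chain whose reads may be divided with its near copy Hba-a2, averaged 10099 ± 4263 CPM in CSAA+PTS, 12290 ± 3032 in CSAA+RSV, 21055 ± 8457 in CSAA+CGA and 21762 ± 4376 in CSAA (SD). Its log2 fold change was -0.28 (95% interval -1.01 to 0.44) against CSAA+RSV, -1.06 (-1.75 to -0.37) against CSAA+CGA and -1.11 (-1.80 to -0.41) against CSAA. The interval against CSAA+RSV spans 0 and reaches -1.01, so a difference between pterostilbene and resveratrol was not detectable here and cannot be taken as absent. The list median was -0.25, -0.76 and -1.12 against those diets. In the 14 pooled rats the test of any diet difference in Hba-a1 gave an unadjusted p of 0.0664.

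The other red cell lists had medians nearer 0. Of 16 red cell membrane genes 1 was lower at an unadjusted p under 0.05 (6.25% against 4.46% of all genes), with a median of -0.16. It was Slc4a1, the anion exchanger of the red cell membrane, which had 2003, 2878, 1019, 2476 and 1629 CPM in CSAA+PTS Rats 1 to 5, against 1337 to 4344 CPM with a median of 2998.5 in the pool. Of 12 regulators of red cell and platelet precursors, 2 were lower (16.7%), among them Gfi1b at a log2 fold change of -0.56. Gfi1b was at -0.32 (interval -0.82 to 0.18) against CSAA+RSV, -0.55 (-1.02 to -0.08) against CSAA+CGA and -0.74 (-1.21 to -0.27) against CSAA. The 12 heme synthesis genes and 13 reticulocyte genes had 0 members past an unadjusted p of 0.05 in either direction, at medians of 0.01 and -0.05.

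**Figure D4:**
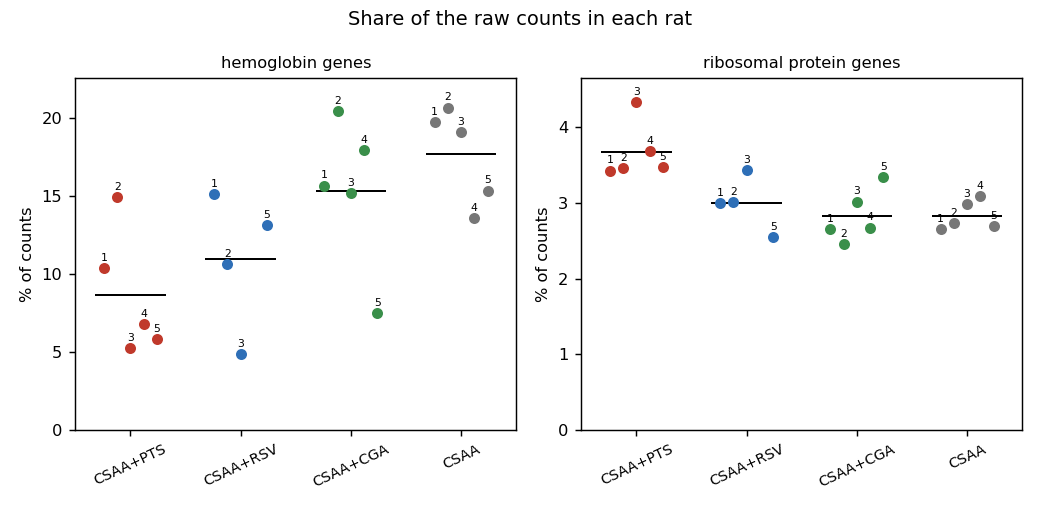
Share of the raw counts taken by hemoglobin genes (left) and by cytosolic ribosomal protein genes (right) in each rat, by diet, with rat numbers and diet means. Ribosomal protein shares of CSAA+PTS rats are 3.43 to 4.33%, against 2.45 to 3.44% in the 14 others.

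Genes for cytosolic ribosomal proteins took a larger share of the counts in CSAA+PTS rats. The share was 3.43, 3.46, 4.33, 3.69 and 3.47% in CSAA+PTS Rats 1 to 5, against 2.45 to 3.44% with a median of 2.85% in the pool. The means were 3.68 ± 0.38% (SD, n = 5) and 2.88 ± 0.29% (n = 14), with an exact permutation p of 0.000172 (two-sided, 0.00086 after BH adjustment over 5 measures). The only overlap was between CSAA+PTS Rat1 and Rat3 of CSAA+RSV. Without Rats 2 and 3 of CSAA+PTS the difference was 0.65 percentage points with an exact p of 0.002941. As a share of the counts outside hemoglobin genes, a measure chosen after seeing the data, it ranged from 3.69 to 4.57% in CSAA+PTS rats and from 2.93 to 3.68% in the pool, with an exact p of 8.6e-05, the smallest the test can give.

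On the TMM scale the ribosomal protein genes did not separate the groups. Of 79 tested, some of them table entries that share a symbol, 21 were higher and 0 lower at an unadjusted p under 0.05 (26.6% against 3.88% of all genes), with a median log2 fold change of 0.28 and 74 above 0. The median deviation of the list was 0.13, 0.62, 0.76, 0.04 and -0.22 in CSAA+PTS Rats 1 to 5, against -0.59 to 0.41 in the pool, so Rats 2 and 3 were above every pooled rat and the others were within the range. The count of 21 fell to 0 without CSAA+PTS Rat3 and to 10 without Rat2. It was 7 in a pool without CSAA, 6 in a pool without CSAA+CGA, and 51 without CSAA+PTS Rat5. It was 33 without CSAA+PTS Rat4, 33 without CSAA+RSV Rat3, 37 without CSAA Rat3 and 13 without CSAA Rat5. Rps6, a component of the small subunit, had 557, 655, 819, 549 and 465 CPM, against 313 to 642 CPM with a median of 467 in the pool (log2 fold change 0.39, edgeR adjusted p 0.573). Rpl34, of the large subunit, had a log2 fold change of 0.37 with the same adjusted p.

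The gene with the lowest p in the higher direction was carried by 2 rats. Rgs1, which damps chemokine receptor signaling in lymphocytes, had 1.83, 17.6, 15.2, 2.66 and 2.04 CPM in CSAA+PTS Rats 1 to 5, against 1.58 to 2.74 CPM with a median of 2.02 in the pool. Rats 2 and 3 were above all others and Rats 1, 4 and 5 within the pooled range. The log2 fold change of Rgs1 was 1.92 (SE 0.372, edgeR adjusted p 0.158), and 0.09 without Rats 2 and 3, a comparison added after seeing the data. With all rats of the comparison, DESeq2 called Rgs1.

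The same rats were highest in several other genes of white cells on the TMM scale. CSAA+PTS Rats 2 and 3 had TMM scaling factors of 0.75 and 0.86, which raise their CPM. Those of CSAA+PTS Rats 1, 4 and 5 were 1.13, 1.24 and 1.43, and those of the pool 0.75 to 1.35. The order of the rats in single genes without this scaling was not tested. Cd69, an early activation marker of lymphocytes, had 23.9, 43.0, 41.6, 22.98 and 18.7 CPM, against 13.9 to 24.0 CPM with a median of 17.9 in the pool (log2 fold change 0.71, edgeR adjusted p 0.349). Cxcr4, the chemokine receptor that retains cells in the marrow, had 31.7, 138, 137, 46.4 and 20.3 CPM, against 24.9 to 59.7 CPM with a median of 37.9 in the pool. Tsc22d3, a leucine zipper protein induced by glucocorticoids, had 109, 227, 230.2, 122 and 61.6 CPM, against 62.8 to 145 CPM with a median of 104 in the pool. The log2 fold changes of Cxcr4 and Tsc22d3 were 0.94 and 0.52, and turned to -0.22 and -0.08 without Rats 2 and 3. Those of the granule protein genes Ngp and Camp were 1.18 and 0.82, and turned to -0.11 and -0.23. The edgeR adjusted p of Cxcr4, Tsc22d3, Ngp and Camp was 0.573 to 0.583. That of Cd69 missed the limit in the 2-group edgeR fit, whereas DESeq2 called Cd69. Without Rats 2 and 3 the log2 fold change of Cd69 was 0.28.

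**Figure D5:**
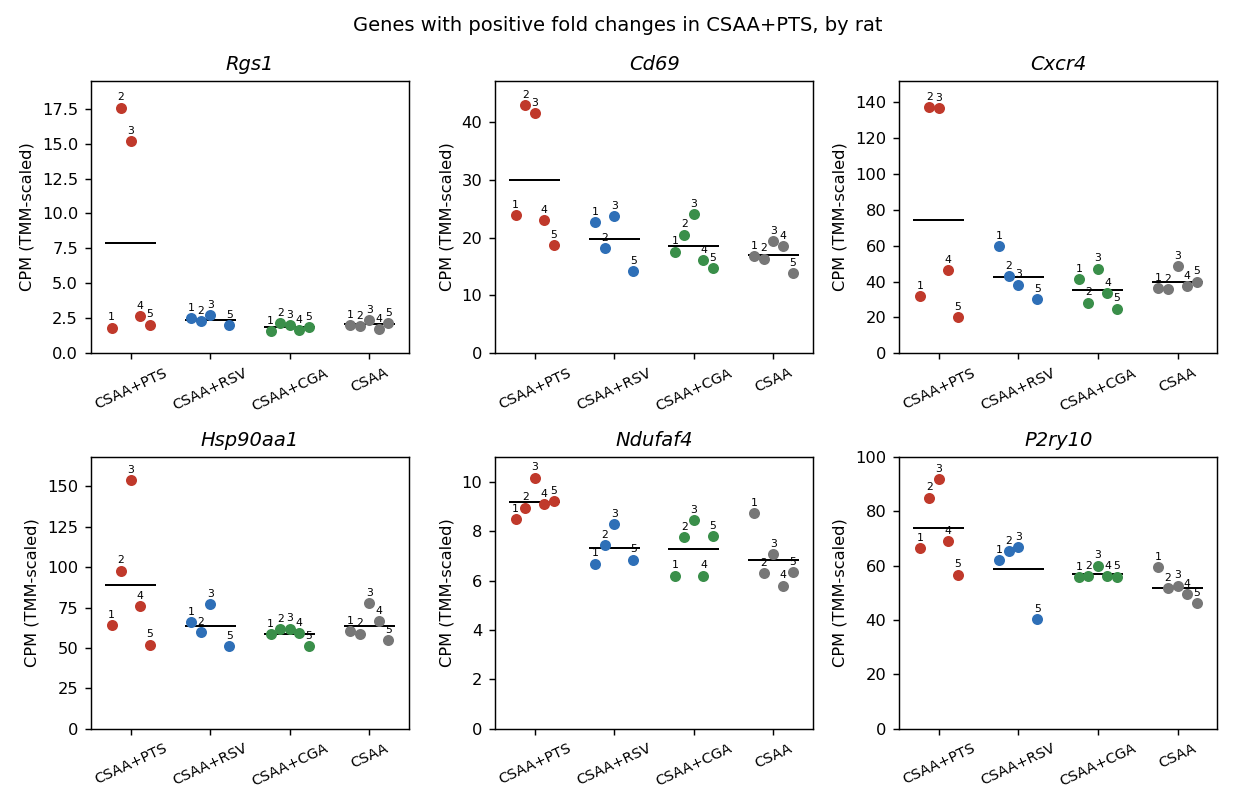
CPM (TMM-scaled) of 6 genes with positive fold changes in each rat, by diet, with rat numbers and diet means. CSAA+PTS Rats 2 and 3 lie above all other rats in Rgs1, Cd69, Cxcr4, Hsp90aa1 and P2ry10. The TMM scaling raises the CPM of these 2 rats, and their place without it was not tested. In Ndufaf4 all 5 CSAA+PTS rats lie near or above the highest pooled rats.

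Ndufaf4, an assembly factor of respiratory complex I, was more even among the CSAA+PTS rats. It had 8.49, 8.95, 10.2, 9.10 and 9.21 CPM in CSAA+PTS Rats 1 to 5, against 5.79 to 8.73 CPM with a median of 6.96 in the pool, with 4 of the 5 rats above every pooled rat. The log2 fold change of Ndufaf4 was 0.36 (SE 0.0923, edgeR adjusted p 0.467) and 0.34 without Rats 2 and 3. DESeq2 called Ndufaf4 with all rats of the comparison. P2ry10, a receptor of lymphocytes for lysophospholipids, had 66.5, 85.0, 91.8, 69.0 and 56.7 CPM, against 40.2 to 66.8 CPM with a median of 56.1 in the pool (log2 fold change 0.41, edgeR adjusted p 0.512, and 0.22 without Rats 2 and 3). Plscr1, a phospholipid scramblase that interferon induces in human cells, had a log2 fold change of 0.31 (0.21 without those rats), opposite in sign to the median of the interferon list, of which it was not a member. Pcsk1, a prohormone convertase, had 0.824, 3.05, 3.14, 2.45 and 1.17 CPM, against 0.639 to 1.64 CPM with a median of 1.13 in the pool, and its log2 fold change of 0.95 was 0.46 without Rats 2 and 3.

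Heat shock proteins and chaperones had 24 members tested, of which 8 were higher and 0 lower at an unadjusted p under 0.05 (33.3% against 3.88% of all genes), with a median of 0.17. Hsp90aa1, the inducible cytosolic Hsp90, had 64.0, 97.8, 154, 76.1 and 52.1 CPM in CSAA+PTS Rats 1 to 5, against 51.0 to 77.8 CPM with a median of 60.1 in the pool (log2 fold change 0.52, and 0.07 without Rats 2 and 3). Cct5, a subunit of the TRiC chaperonin, had a log2 fold change of 0.28, and 0.09 without those rats. Cacybp, a protein that links Hsp90 and ubiquitin ligases, had 20.9, 23.5, 39.3, 21.97 and 19.6 CPM, against 14.8 to 23.8 CPM with a median of 17.3 in the pool, and its log2 fold change of 0.49 was 0.27 without CSAA+PTS Rat3. The edgeR adjusted p was 0.573 for Hsp90aa1, 0.575 for Cct5 and 0.449 for Cacybp. Of 25 proteasome genes 3 were higher (12%) and 0 lower, at a median of 0.13, and of 24 genes of mitochondrial biogenesis and oxidative phosphorylation 2 were higher (8.33%) and 2 lower (8.33%), at 0.13.

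Marker lists of blood cell types were read against 4.46% of all genes lower and 3.88% higher at an unadjusted p under 0.05. At that limit, 0 of 22 T cell, 0 of 16 B cell and 0 of 17 platelet genes differed in either direction, at medians of -0.07, -0.07 and -0.01. Of 13 natural killer and cytotoxic genes 2 were higher (15.4%, median 0.19), and of 15 neutrophil genes 2 were higher (13.3%, median 0.27). The summed level of the natural killer list was 146 to 233 CPM in CSAA+PTS rats and 122 to 209 CPM in the pool, and that of the neutrophil list 479 to 1287 and 485 to 1016 CPM. Of 19 monocyte and macrophage genes 3 were lower (15.8%) and 0 higher, at a median of 0.00, and the summed level was 1231 to 1800 CPM in CSAA+PTS rats and 1238 to 2080 CPM in the pool. Whether these cell types took part in the differences above was not tested.

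Klrd1, a receptor chain of natural killer cells, had 20.9, 19.4, 27.7, 19.9 and 16.9 CPM in CSAA+PTS Rats 1 to 5, against 11.7 to 20.6 CPM with a median of 15.7 in the pool. Klri2, another killer cell lectin-like receptor, had 1.86, 3.74, 5.39, 2.97 and 2.92 CPM, against 1.87 to 2.86 CPM with a median of 2.20 in the pool, with 4 of the 5 rats above every pooled rat and Rat1 below every one. The log2 fold changes of Klrd1 and Klri2 were 0.41 and 0.58, with edgeR adjusted p of 0.573 and 0.512. For Klri2 it was 0.34 without CSAA+PTS Rat3 and 0.21 without Rats 2 and 3.

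The counts of other pathways stand against a background at an unadjusted p under 0.05 in which 4.46% of all genes were lower and 3.88% higher. Of 16 genes of the integrated stress response 2 were lower (12.5%) and 0 higher. Cell cycle and DNA replication had 2 lower (8.33%) and 1 higher (4.17%) of 24, splicing factors 2 lower (7.14%) and 1 higher (3.57%) of 28, and sirtuin and NAD genes 1 lower (7.69%) of 13. Sesn2, a stress-induced inhibitor of mTORC1, had 4.37, 4.07, 4.75, 4.59 and 4.90 CPM in CSAA+PTS Rats 1 to 5, against 4.52 to 7.01 CPM with a median of 5.96 in the pool (log2 fold change -0.37, edgeR adjusted p 0.467). Cdc20, an activator of the anaphase-promoting complex, had a log2 fold change of -0.72 with the same adjusted p. The splicing factor Sf3a2 and the deacetylase Sirt6 had log2 fold changes of -0.71 and -0.46, each with an edgeR adjusted p of 0.512. Sf3a2 was at -0.33 (interval -0.83 to 0.17) against CSAA+RSV, -0.88 (-1.35 to -0.42) against CSAA+CGA and -0.78 (-1.25 to -0.32) against CSAA. Sirt6 was at -0.29 (-0.61 to 0.04), -0.51 (-0.82 to -0.20) and -0.55 (-0.85 to -0.24), in that order.

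Of 21 immediate early genes 3 were lower (14.3% against 4.46% of all genes) and 2 higher (9.52% against 3.88%), and the nuclear receptor Nr4a1 and the RNA-binding protein Zfp36 had log2 fold changes of -0.66 and -0.56. Nr4a1 was at -0.30 (interval -0.82 to 0.21) against CSAA+RSV, -0.73 (-1.22 to -0.25) against CSAA+CGA and -0.83 (-1.31 to -0.34) against CSAA. Zfp36 was at -0.30 (-0.81 to 0.21), -0.56 (-1.04 to -0.08) and -0.73 (-1.21 to -0.25), in that order. Of 26 actin and myosin genes 5 were lower (19.2% against 4.46% of all genes) and 0 higher, at a median of -0.12. Myh9, non-muscle myosin, had 314, 502, 214, 436 and 428 CPM, against 213 to 764 CPM with a median of 581 in the pool, so all CSAA+PTS values were inside the pooled range. Of 28 extracellular matrix genes and 22 pro-inflammatory genes, 0 passed in either direction, and of 23 genes of the Nrf2 pathway 1 was lower (4.35%).

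The remaining lists, given as members lower and higher at an unadjusted p under 0.05 with the median log2 fold change, stand against 4.46% of all genes lower and 3.88% higher. Of 12 glucocorticoid-responsive genes 0 were lower and 2 higher (16.7%), at 0.17, with list deviations of 0.69 and 0.53 in CSAA+PTS Rats 2 and 3 and at most 0.22 in the pool. Antigen presentation had 2 lower of 16 (12.5%, -0.14), cholesterol and lipid genes 2 of 21 (9.52%, -0.19), circadian clock genes 3 of 14 (21.4%, -0.05) and autophagy genes 2 of 21 (9.52%, -0.04), with 0 higher in each. Amino acid transporters had 1 lower of 12 (8.33%, -0.07), DNA methylation and chromatin genes 1 of 18 (5.56%, -0.05), estrogen receptor and steroid genes 1 of 10 (10%, -0.03), eosinophil, basophil and mast cell genes 1 of 10 (10%, -0.13) and aryl hydrocarbon receptor genes 2 of 8 (25%, -0.11), with 0 higher. Iron handling (12 genes, 0.03), muscle filament (6, 0.10) and mitochondrially encoded genes (13, -0.06) had 0 members past the limit. The mitochondrially encoded median differed in sign between diets, at -0.42 against CSAA+RSV (13 of 13 below 0), 0.23 against CSAA+CGA (0 of 13) and -0.07 against CSAA (8 of 13). The extracellular matrix median was 0.03 against CSAA+RSV, -0.07 against CSAA+CGA and 0.52 against CSAA (8 of 28 below 0), and -0.04 against the pool. Its list deviation was 1.36 in CSAA+PTS Rat5 and -0.30 to 0.30 in the other CSAA+PTS rats. In the Rat5 of CSAA+RSV, CSAA+CGA and CSAA it was 1.28, 1.79 and 0.40. Medians of the lists above that were not yet given were -0.07 for the integrated stress response, 0.03 for cell cycle, 0.02 for splicing, -0.03 for sirtuins and NAD, -0.02 for immediate early genes, -0.04 for pro-inflammatory genes and 0.02 for the Nrf2 pathway.

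The other measures of library composition overlapped between the groups. The share of mitochondrially encoded genes, the share of the 100 most abundant genes and the number of genes detected gave exact permutation p of 0.318, 0.0941 and 0.721, and the p of the 100 most abundant genes was 0.0134 without CSAA+PTS Rat2. The Rat5 of every diet had the most genes detected, 25104 to 29543, against 19600 to 23632 in the others.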

How the data were processed

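The authors sequenced whole-blood RNA of each rat with a stranded kit as single reads. They trimmed reads with Trimmomatic 0.32, checked them with FastQC 0.11 and aligned them to rn6 with TopHat2 2.1. They counted reads per gene with Rsubread and tested diets with DESeq2 1.30. Their fits held diet alone, or diet with estimated T cell, B cell and macrophage scores as covariates. Such scores were not used here. The deposited values are whole-number read counts per Ensembl gene, not normalized. Which strand setting the counting used was not found in the labels or methods, and which rats shared a lane was not stated. In the labels the library numbers run in blocks by diet. Whether libraries were handled in that order was not stated, so a handling difference cannot be told apart from diet. Library totals of the 19 rats were 24036703 to 36743103, and 0 columns lacked a sample.

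Counts were scaled by TMM and fitted in R 4.3.3 with edgeR 4.0.16 (robust quasi-likelihood, 2 groups) over the 19 rats. Genes needed 2 reads in at least 15 libraries. p-values were two-sided and adjusted by Benjamini-Hochberg over 16734 genes, with 0.05 as the limit, and intervals are 95%. Values against each diet come from a fit of 4 diet means. limma 3.58.1 and DESeq2 1.42.0 served as alternatives. Shares were compared by exact permutation of rats. Lists are described by counts and medians, with no set test. Promoters were matched by symbol.

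The comparison, the lists and the rules were chosen with earlier results of these data known. Genes eligible to be named were those past the limit, the 10 lowest p per direction with a mean of 1 CPM or more, genes whose groups do not overlap (mean of 1 CPM or more), up to 3 of lowest p per list, the qRT-PCR genes and Hba-a1, and the lowest p or largest folds among genes called with the rat number as a block. A subset of these is given, so values of members picked by lowest p restate that choice. Alternatives changed the scaling, filter, tool, model, block and rats included. The fits without CSAA+PTS Rats 2 and 3, and the ribosomal share outside hemoglobin, were chosen after seeing the data. List members missing from the table or below the filter were not analysed here. Results for some genes are not reported here.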

Additional observations from a re-analysis of the deposited data

Results flagged for a closer look

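In groups of 4 or 5 rats, 22 of 228 combinations of diet and measure had a rat set apart from the rest of its diet by a gap large against the diet's range. The limit used would flag about 5% of independent, normally distributed values. These measures share the same rats and many genes were picked by low p, so an excess over 5% was not tested. CSAA Rat4 was the highest of its diet in Rtp4 (19.7 CPM, others 12.6 to 14.1), Oasl (19.4, others 10.1 to 12.6), Usp18 (25.3, others 16.6 to 17.6), Znfx1 (74.0, others 38.4 to 45.7), Pip4k2b (9.32, others 6.10 to 6.65) and Myh9 (763.9, others 553 to 609). CSAA Rat1 was low in Oas1a (46.1 CPM, others 57.5 to 61.8). Without CSAA Rat4, Rtp4 had a log2 fold change of -0.70 and an edgeR adjusted p of 0.0361.

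CSAA+PTS Rat3 stood apart in Cacybp (39.3 CPM, others 19.6 to 23.5), Ngp (9.14, others 1.13 to 3.09), Rpl34 (146.8, others 102 to 114), Pip4k2b (3.89, others 5.63 to 5.86) and the ribosomal protein share (4.33%, others 3.43 to 3.69%). CSAA+PTS Rat2 was high in Pltp (9.89 CPM, others 3.50 to 5.28) and CSAA Rat5 likewise (13.6, others 9.47 to 10.2). CSAA+PTS Rat5 was low in Letm1 (5.42 CPM, others 6.27 to 6.39).

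The remaining flagged values were in pooled rats. CSAA+RSV Rat5 was high in Plscr1 (6.43 CPM, others 5.14 to 5.33) and low in Klrd1 (11.9, others 18.6 to 19.2) and Cct5 (47.7, others 72.5 to 75.8). CSAA+CGA Rat4 was low in Plscr1 (4.47 CPM, others 5.20 to 5.39), and CSAA+CGA Rat3 high in P2ry10 (60.0447 CPM, others 55.9 to 56.3). The number of genes detected was 29543 in CSAA+PTS Rat5 (others 20497 to 21901) and 28014 in CSAA+CGA Rat5 (others 20389 to 21887).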

How the results depend on the processing

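Of 1974 values of 52 genes under the alternatives, 1858 kept their direction and their side of BH 0.05, 87 passed it with DESeq2, limma-voom or the block, 25 of Rtp4 no longer passed, and 4 changed sign without Rats 2 and 3 of CSAA+PTS: Cxcr4 (-0.22), Tsc22d3 (-0.081), Ngp (-0.11) and Camp (-0.23). Genes past BH 0.05, 1 in all and lower, numbered 0 with RLE factors, scaling without hemoglobin, no filter, 2 reads in all libraries, 4 diet means, CSAA+RSV Rat4 included, without the Rat5 of every diet, in a pool without CSAA, CSAA+RSV or CSAA+CGA, and without Rats 2 and 3 of CSAA+PTS. Leaving out 1 rat gave 0 to 1. DESeq2 gave 23 (20 lower, 3 higher) and limma-voom 7 (7 lower). The cause was not tested.

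By the rule used, that every same-numbered correlation exceed 0.1, rat numbers were not taken to pair the rats. Same-numbered deviations correlated at -0.29 to 0.77 (median 0.28), with 11 of 14 over 0.1. The Rat5 pairs correlated at 0.51 to 0.77, and 9 of 19 libraries correlated best with their own number. In the labels, same-numbered Rats 1 to 4 had consecutive animal numbers across the diets, counting the left-out CSAA+RSV Rat4, whereas the Rat5s did not. Missing this rule therefore does not show the rats to be unrelated. With the rat number as a replicate block, edgeR called 23 genes (22 lower, and Cd69 higher), 17 of them interferon-stimulated genes. With 4 diet means and the block it called 13 (12 lower, and Cd69 as the 1 higher), 11 of them interferon-stimulated genes. DESeq2 with the block called 336 (173 lower, 163 higher). Oas1g and Oas1i, nearly equal in value, count separately in the 23, 17, 13 and 11. Against single diets the block gave 7 genes for CSAA+RSV and 3 for CSAA. Ribosomal protein genes higher at an unadjusted p under 0.05, 21 in all, were 39, 34 and 42 under these 3 blocked fits.

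That count was 34 without the Rat5 of every diet, 7 and 6 in a pool without CSAA or CSAA+CGA, 0 without CSAA+PTS Rats 2 and 3, and 0 to 51 with 1 rat left out. Non-overlapping genes, 6 below and 0 above, were 3 and 32 with raw library size, 29 and 20 without the Rat5s, and 2 to 15 and 0 to 15 with 1 rat left out. Leaving out 1 CSAA+PTS rat gave differences in percentage points of -7.86 to -5.45 for hemoglobin, and -4.81 to -1.91 for the 100 most abundant genes (-6.28 without Rats 2 and 3, exact permutation p 0.005882). The difference in genes detected was -1105 to 1156, and -1105 without CSAA+PTS Rat5. With 5 CSAA+PTS rats, single animals moved calls, so a gene that missed the limit is not shown to be equal between diets.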
